A study of Mus musculus with 40 samples.

Results

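Brwd1, Brwd3 and Phip are the 3 mouse genes of a family of proteins that carry WD40 repeats followed by a pair of bromodomains. The regions described here are the ChIP-seq regions whose nearest annotated gene start, within 200 kb, was that of 1 of these genes. There were 90 such regions among the 863771 regions of 7 ChIP targets: 22 for Brwd1, 40 for Brwd3 and 28 for Phip. Regions of several targets often covered the same DNA, so that the 90 regions lay at 46 distinct sites, and regions at 1 site are not independent of each other.

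A bromodomain is a protein fold that binds acetylated lysines, chiefly on histone tails. BRWD1 is known in small pre-B cells, the stage at which the immunoglobulin kappa light chain gene is rearranged, for binding acetylated chromatin and for its part in that rearrangement. PHIP is also a substrate receptor of CUL4 ubiquitin ligases and binds methylated H3K4 next to acetylated lysine, and BRWD3 is an X-linked member of the family and a CUL4 receptor as well. Cohesin, whose subunits include SMC3 and RAD21, extrudes DNA into loops. NIPBL activates its loading and loop extrusion, WAPL releases it from DNA, and CTCF is the DNA-bound protein at which extrusion stalls. H3K27ac marks active promoters and enhancers, and H3K4me1 marks enhancers and the flanks of active promoters.

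Small pre-B cells were purified from the marrow of mouse bones by flow cytometry, and the series holds 40 samples, of which 36 are ChIP libraries and 4 are inputs. Cells came from Brwd1-/- mice (KO), from wild type mice whose cells were cultured with 126 nM oligomycin A, an inhibitor of the mitochondrial ATP synthase, for 2 h (ATPneg), or from wild type mice (WT), with 2 libraries per target and condition. How many mice stood behind a library, how old they were and what stretch of Brwd1 is missing are not in the labels. ATPneg libraries exist for NIPBL, RAD21, SMC3 and WAPL and have peak lists but no counts, so that their depth is unknown. The p-values measure the spread between 2 libraries per group, which may be technical in part.

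Some libraries went against their labels, and this bears on every value of H3K27ac and H3K4me1 below. The genotype label of the KO libraries of these marks reads wild type, while their titles name the knockout. Of the 36 peak lists, 6 hold peak names that belong to another sample: the lists labelled H3K27ac KO carry names of H3K4me1 WT, the lists labelled H3K4me1 WT carry names of H3K27ac KO, and the NIPBL lists KO 2 and WT 1 carry each other's names. Over 4784 overlapping H3K27ac and H3K4me1 regions of at least 500 bp, the counts labelled H3K27ac KO correlated more closely with those labelled H3K4me1 KO (Pearson's r 0.945 to 0.946 across regions, on log2 of CPM per kb plus 0.1, where CPM is the read count scaled to library size) than with those labelled H3K27ac WT (0.918 to 0.919). The counts labelled H3K4me1 WT correlated more closely with those labelled H3K27ac WT (0.890 to 0.892) than with those labelled H3K4me1 KO (0.834 to 0.835). An exchange of the libraries labelled H3K27ac KO and H3K4me1 WT cannot be told apart here from a difference between the genotypes. No comparison within either mark remains without these libraries, and all values are therefore those of libraries as labelled. For NIPBL, depth went with the labels: the KO libraries held 3803369 and 3784506 reads in regions, against 17681215 and 16916106 in WT.

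Depth in regions ran from 3784506 reads (NIPBL KO 2) to 30496715 (WAPL KO 1). KO libraries of NIPBL, RAD21 and SMC3 were shallower than their WT libraries. CTCF WT 2 stood apart from the other CTCF libraries, with 17055094 reads in regions against 3880112 to 5033230 in the others, and with 67796 peaks against 21429 in WT 1. Near the starts of marker genes, the level of H3K27ac did not set the B lineage above other lineages: with genes that had no region within 2 kb counted as 0, the median gene held 2.12 CPM per kb in KO and 2.92 in WT for the B lineage (7 of 9 genes with a region), 1.80 in KO and 1.85 in WT for the T lineage (3 of 6), 3.33 in KO and 3.13 in WT for myeloid genes (4 of 6), and 7.16 in KO and 5.96 in WT for erythroid genes (3 of 5). By this measure the labelled cell type was not visible. In bulk samples, fewer cells with a mark and less of the mark per cell cannot be told apart.

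The promoters show how the members differ in sequence before any ChIP value is read. The 250 bases before each gene start are printed 5′ to 3′ on the gene's own strand, which is the minus strand for all of them, from RefSeq with the build GRCm38.p6. The ChIP files use the build mm9. Capitals mark GC boxes, the letters GGGCGG read on either strand, which are bound by SP and KLF family factors.
Brwd1 (chr16:96082429-96082678): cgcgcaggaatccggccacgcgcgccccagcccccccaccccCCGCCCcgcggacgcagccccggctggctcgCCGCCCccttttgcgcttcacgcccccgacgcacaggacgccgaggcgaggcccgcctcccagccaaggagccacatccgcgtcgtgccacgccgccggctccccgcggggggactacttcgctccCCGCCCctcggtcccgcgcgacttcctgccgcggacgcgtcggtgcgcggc
Phip (chr9:82975490-82975739): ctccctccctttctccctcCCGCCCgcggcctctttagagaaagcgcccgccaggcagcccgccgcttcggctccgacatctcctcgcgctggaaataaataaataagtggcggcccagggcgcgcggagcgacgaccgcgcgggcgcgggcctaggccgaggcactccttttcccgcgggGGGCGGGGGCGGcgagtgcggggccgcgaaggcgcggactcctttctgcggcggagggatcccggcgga
Brwd3 (chrX:108834347-108834596): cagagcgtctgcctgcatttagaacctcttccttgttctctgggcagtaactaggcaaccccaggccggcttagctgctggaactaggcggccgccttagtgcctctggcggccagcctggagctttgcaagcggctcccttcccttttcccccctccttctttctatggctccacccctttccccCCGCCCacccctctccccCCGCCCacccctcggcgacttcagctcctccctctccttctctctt
The Brwd1 promoter held 42 CG pairs at 79.6% GC, Phip 37 pairs at 72.4% and Brwd3 10 pairs at 62.8%, where the median of 32851 mouse promoters of this length was 6 pairs at 52.4%. Only 0.865% of promoters held as many CG pairs as Brwd1 and 2.20% as many as Phip, against 37.8% for Brwd3. GC boxes numbered 3 in Brwd1, 3 in Phip and 2 in Brwd3, and 32.7% of all promoters held at least 1. None of the windows held CCGGAAG (an ETS core, in 6.91% of promoters), the NRF1 consensus (3.74%) or the CTCF core consensus (7.17%) on either strand.

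The genes also share their surroundings. In RefSeq, Brwd1 is followed at higher coordinates, upstream of its start, by Hmgn1, Get1, Lca5l and Sh3bgr, Phip by Hmgn3, Lca5 and Sh3bgrl2, and Brwd3 by Gm14870, Hmgn5 and Sh3bgrl. Each member thus lies near an Hmgn gene, which encodes a nucleosome-binding protein, and near a gene of the Sh3bgr family. Sites with regions of 4 or more targets numbered 0 of 15 for Brwd1, 4 of 19 for Brwd3 and 1 of 12 for Phip. The share of such sites over all genes was not computed. The Brwd3 sites from 173535 bp and 107972 bp held up to 850 and 198 KO input reads per kb. The Phip site 34623 bp upstream held up to 453. The remaining Brwd3 sites, from 89200 bp and 42249 bp, held up to 101 and 58.0.

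Of the 90 regions, 88 passed the filter on low counts and 22 passed the test between KO and WT (edgeR's quasi-likelihood test, adjusted p below 0.05 over all regions of the target), 13 of them higher and 9 lower in KO. Brwd1 had 9 higher and 2 lower of 22 regions tested, Brwd3 2 higher and 3 lower of 39, and Phip 2 higher and 4 lower of 27. The mix of targets differs by gene and the share called differs by target, so these counts are not comparable between genes. By target, the calls were 0 of 8 for CTCF (0.0396% of all tested CTCF regions were called), 1 of 5 for NIPBL (background 1.63%), 0 of 3 for RAD21 (23.4%), 2 of 5 for SMC3 (40.2%), 2 of 10 for WAPL (40.7%), 8 of 33 for H3K27ac (16.5%) and 9 of 24 for H3K4me1 (16.4%). Beside the 0 for CTCF, no region was below an unadjusted p of 0.05 and DESeq2 also called 0, and beside the 0 for RAD21, 1 region was below it and DESeq2 called 1. Shares for SMC3 and WAPL were at or below their backgrounds, so that the sites are described singly. Of the 22 called regions, 8 had a peak in KO lists and in no WT list, and all 8 were higher, while 5 had a peak in WT lists and in no KO list, and all 5 were lower. Such a region is in the table through the group in which it is high, which fixes its direction in part, and the count of calls in 1 direction is no support for a change.

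**Figure D1:**
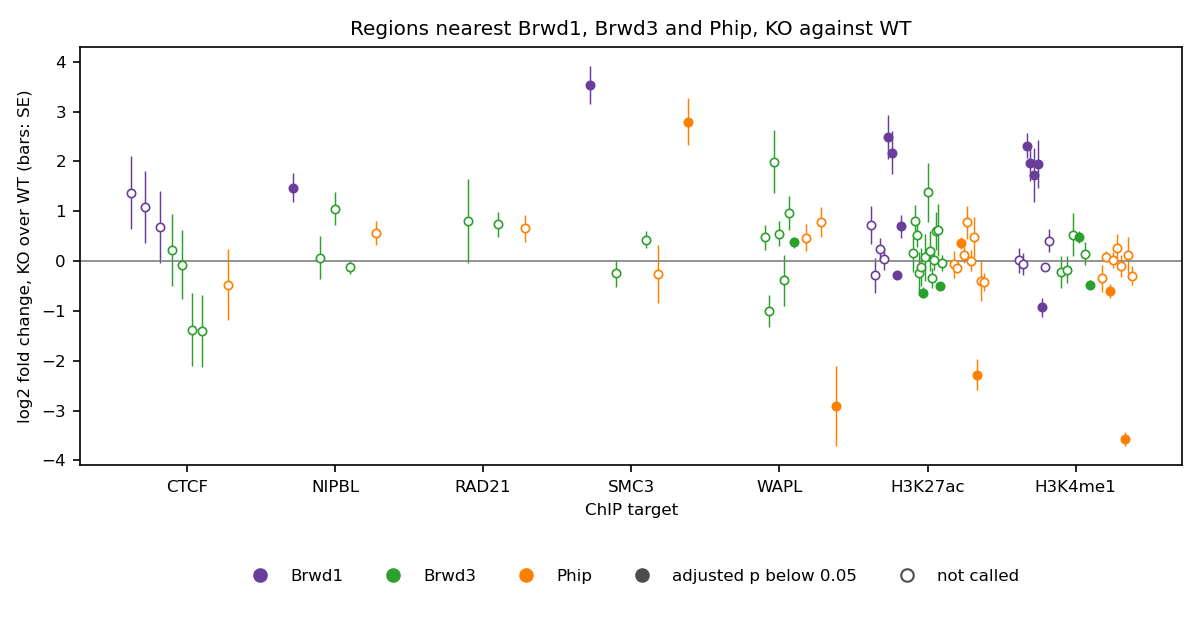
Log2 fold change of KO over WT (y axis, bars are standard errors) for the 88 tested regions, by ChIP target (x axis) and gene (colour), with filled circles for regions called at an adjusted p below 0.05. The lowest value is H3K4me1 at the Phip start (-3.57) and the highest is SMC3 within Brwd1 (3.53).

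Brwd1 is the gene that was knocked out, and input reads were present in both genotypes at each of its regions with an input column. Over the 5 Brwd1 regions with an input column, the KO input held at least 5 reads and the WT input at least 7. The KO share of both inputs ran from 35.7% to 65.0%. All 5 exact binomial 95% intervals, which cover counting error only, held the share of the whole table. The CTCF and SMC3 regions near 37998 bp overlap, so that their intervals are not independent. The SMC3 region at 37998 bp, for example, had 13 KO and 7 WT input reads, a KO share of 65.0% (40.8% to 84.6%) against 49.6% in all SMC3 regions. Inside the gene only the sites near 15290 bp and 37998 bp had an input column, with 7 to 14 reads each, so the input does not show which part was deleted. The libraries labelled H3K4me1 KO also held reads over the start (30 and 42) and at 23941 bp (432 and 492).

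Within Brwd1, SMC3 rose at a CTCF site far inside the gene. The region (mm9, chr16:96265844-96266037) lies in the gene body 37998 bp from the start and overlaps a CTCF region at 37897 bp. SMC3 held 32 and 23 reads in the KO libraries and 7 and 10 in the deeper WT libraries, which is 7.63 and 5.20 CPM in KO and 0.457 and 0.625 CPM in WT. The groups did not overlap, and both KO libraries were above both WT libraries. The region had a peak in KO 1 and in no WT list. It entered the set of regions through that list, which fixes this separation in part. The log2 fold change was 3.53 ± 0.38 (SE, n = 2 libraries per group, adjusted p = 0.00106), and the call held in all 10 alternative settings. Of the SMC3 regions at a CTCF peak of both WT libraries, 96.4% were called higher in KO, with a median log2 fold change of 3.62. Over all CTCF regions, 12132 and 12020 carried a peak of the SMC3 KO lists. Regions of that set may thus have entered through KO lists, which would fix the share and the median in part. How many did was not computed. The KO libraries held fewer SMC3 peaks in all, 12467 and 12323, against 41044 and 64033 in WT.

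CTCF itself did not pass the test at any of its 3 Brwd1 regions. At 37897 bp it held 10.5 and 10.2 CPM in KO and 10.4 and 2.94 CPM in WT (log2 fold change 0.68 ± 0.72, adjusted p = 0.452). The low value is that of WT 2, the library that stands apart, and the other WT library lies between the KO libraries. Without WT 2 the log2 fold change at this region was -0.01 (adjusted p = 0.986), and without WT 1 it was 1.86 (adjusted p = 1.52e-10). The regions 5090 bp and 20524 bp upstream had log2 fold changes of 1.09 ± 0.73 and 1.37 ± 0.73, of 0.33 and 0.70 without WT 2, and of 2.16 and 2.37 without WT 1. In the CTCF peak lists, the region 20524 bp upstream held a peak in both KO lists and in neither WT list, although WT 2 has the longest list. It entered the set of regions through those KO lists. That fixes the pattern in part, and it is no support for a change.

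By counts, NIPBL and H3K27ac were higher in the libraries labelled KO at the same place in the Brwd1 body. The NIPBL region (chr16:96288364-96288745) lies 15290 bp from the start and held 9.43 and 15.2 CPM in KO against 5.30 and 3.51 CPM in WT (log2 fold change 1.48 ± 0.29, adjusted p = 0.0391). The groups did not overlap, but the call had no adjusted p in DESeq2 and was lost without any 1 of the 4 libraries (adjusted p 0.0775 to 0.255) and with input-subtracted counts (0.212). The H3K27ac region at 15358 bp, inside it, held 17 and 31 reads in the libraries labelled KO and 7 and 5 in those labelled WT (2.18 ± 0.44, adjusted p = 3.28e-05). Its call was lost without KO 2, where the log2 fold change was 1.63. DESeq2 gave it no adjusted p, and input-subtracted counts gave no value. The region had a peak in the list labelled KO 2 alone, which fixes its direction in part. A NIPBL peak was listed there in both WT lists and in KO 2, but not in KO 1. The KO 2 and WT 1 lists are those that carry each other's names. The NIPBL KO lists were short, with 2333 and 2048 peaks, against 25979 and 55995 in WT. No region of RAD21 or WAPL had Brwd1 as its nearest gene.

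**Figure D2:**
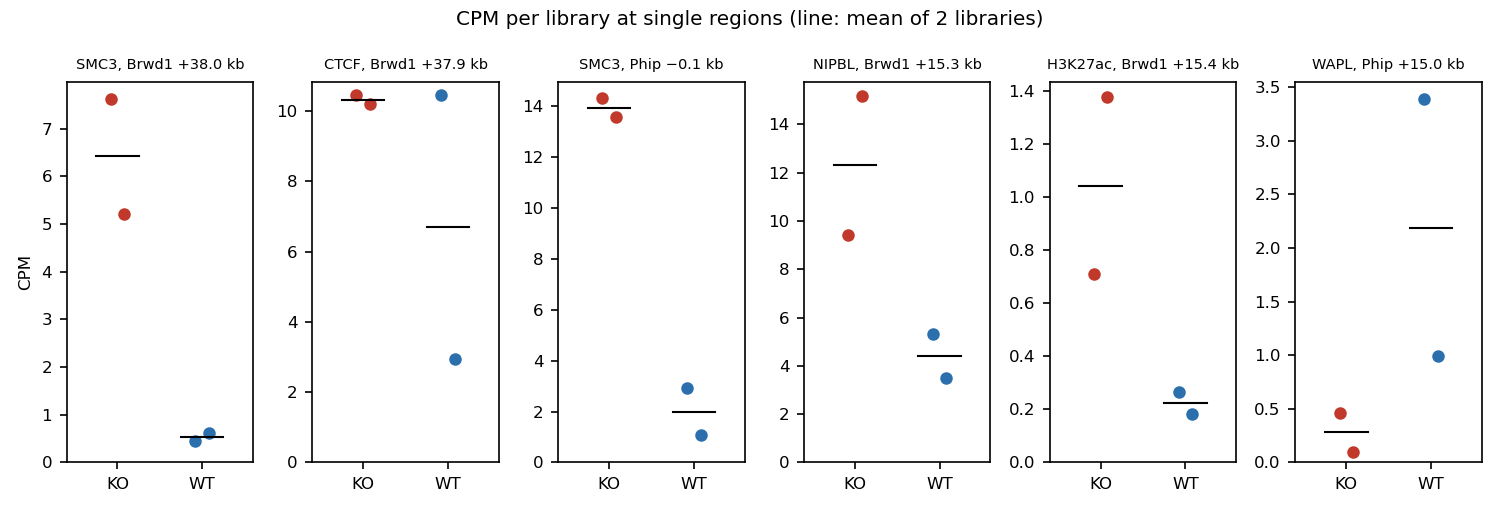
CPM (y axis, from 0, on a scale of its own in each panel) in each KO and WT library (points, lines are means of 2 libraries) at 6 regions named by target, gene and distance from the gene start. KO and WT points are apart in every panel but CTCF in Brwd1, where WT 1 lies at 10.4 between the KO values of 10.5 and 10.2.

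At Brwd1, H3K4me1 was low over the start and raised on the upstream flank in the libraries labelled KO. H3K27ac was raised on that flank. H3K4me1 over the start (chr16:96303346-96304179, 834 bp) held 30 and 42 reads in KO and 87 and 106 in WT, or 2.19 and 2.93 CPM per kb in KO and 4.91 and 4.89 in WT. This region had a peak in the lists labelled WT and in none labelled KO, which fixes its direction in part. Its log2 fold change was -0.93 ± 0.19 (adjusted p = 2.56e-05), though DESeq2 gave an adjusted p of 0.0592. This was less than the usual change at a start, since 86% of the 3539 H3K4me1 regions over a start were called lower in KO, with a median of -1.47, and Brwd1 took place 2597 in the order of loss. No H3K27ac region covered the Brwd1 start.

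Upstream of Brwd1 the direction turned. H3K4me1 at 2804 bp upstream held 34 and 28 reads in KO and 8 and 14 in WT (log2 fold change 1.97 ± 0.36, adjusted p = 1.03e-06), and H3K27ac at 2765 bp upstream, at the same site, held 30 and 20 reads in KO and 5 and 5 in WT (2.49 ± 0.45, adjusted p = 2.59e-06). In both marks the KO libraries lay above the WT libraries with no overlap, which the entry of these regions through KO lists fixes in part. H3K4me1 regions at 950 bp, 1617 bp and 3657 bp upstream, of which the first pair is named after its values were seen, also rose, by 1.95 ± 0.49, 1.72 ± 0.54 and 2.32 ± 0.25. These were the 4 H3K4me1 regions between 500 and 4000 bp upstream, a distance at which 11.3% of 5962 H3K4me1 regions and 6.81% of H3K27ac regions were called higher. All of them, and the H3K27ac region, had a peak in KO lists alone. That fixes their direction in part, and their number says nothing about Brwd1. The call at 950 bp was lost with DESeq2 (adjusted p = 0.0650) and without KO 2 (0.0608), and that at 1617 bp with DESeq2 (0.226), without WT 1 (0.0869), without WT 2 (0.131) and without KO 1 (log2 fold change 1.06, adjusted p = 0.382). The share of reads in regions over gene starts moved with these results: 1.65% and 1.64% in H3K4me1 KO against 3.50% and 3.54% in H3K4me1 WT, and 0.200% and 0.199% in H3K27ac KO against 0.233% and 0.233% in H3K27ac WT. Its part in the single values, like that of the label conflict, was not tested.

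The densest reads of the marks in Brwd1 lay 23942 bp inside the gene, in a region of 206 bp. No KO or WT input column covers this place, and the part of the input in these levels was not tested. H3K27ac held 131 and 120 CPM per kb there in KO and 150 and 156 in WT, with a log2 fold change of -0.28 ± 0.06 (adjusted p = 4.49e-05). H3K4me1 at the same place held 131 and 143 CPM per kb in KO and 157 and 144 in WT and did not pass the test (-0.13). The authors' H3K27ac peak scores here were 15.5 and 24.2 in KO and 32.8 and 38.6 in WT. At the Brwd3 site from 173535 bp they were 119 and 123 in KO and 164 and 173 in WT. H3K27ac held fewer reads there, 72.0 and 70.2 CPM per kb in KO and 98.2 and 102 in WT.

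**Figure D3:**
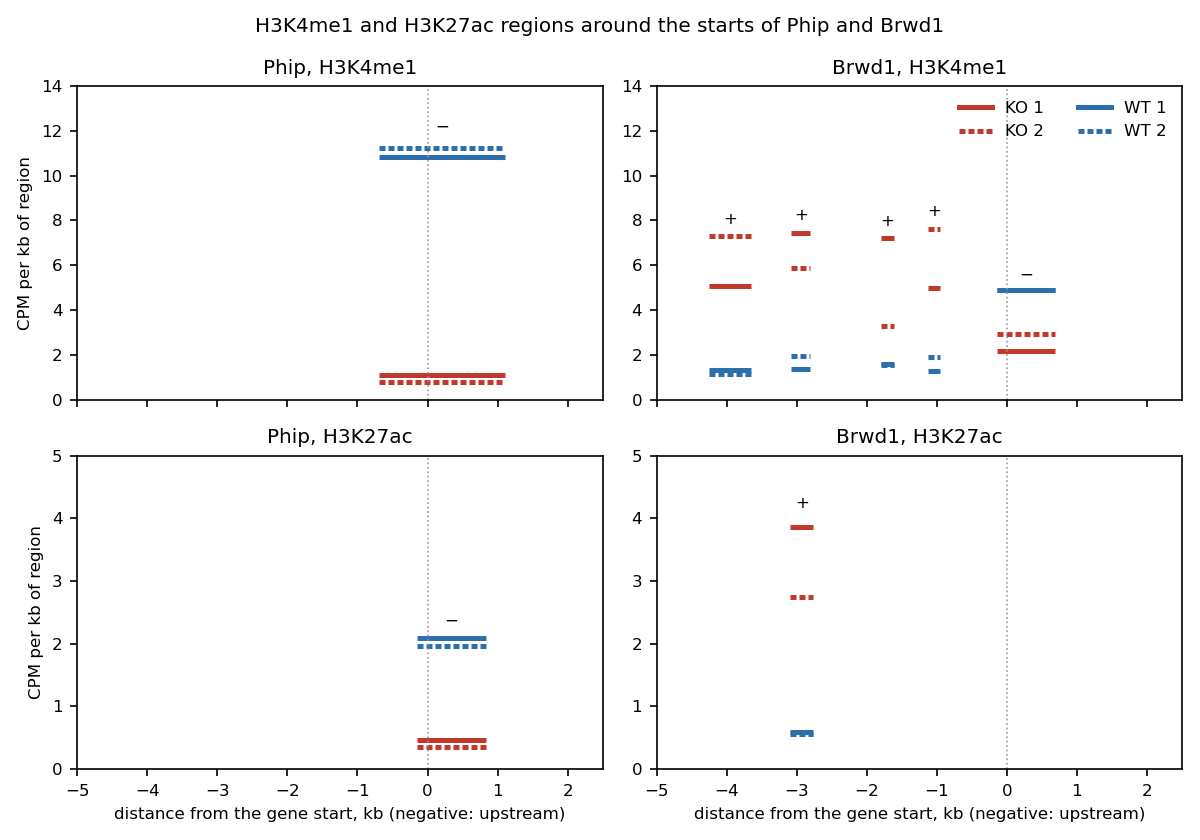
CPM per kb of region (y axis, from 0) for H3K4me1 and H3K27ac regions from 5 kb upstream to 2.5 kb downstream of the Phip and Brwd1 starts (x axis, in kb, dotted line at the start), each region drawn at its true width in each of the 4 libraries as labelled. A plus marks a region called higher in KO and a minus one called lower. Phip shows a loss over the start in both marks. Brwd1 shows a loss of H3K4me1 over the start beside gains upstream in both marks.

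Phip, the paralog on chromosome 9, had the largest log2 change in H3K4me1 among the family's regions. H3K4me1 over its start (chr9:82867984-82869782, 1799 bp) held 32 and 24 reads in the libraries labelled KO and 414 and 525 in those labelled WT, or 1.08 and 0.775 CPM per kb in KO and 10.8 and 11.2 in WT. The groups were far apart, with both KO libraries near 1 CPM per kb. The log2 fold change was -3.57 ± 0.14 (adjusted p = 2.08e-118), it passed in all 10 alternative settings, and it took place 26 of the 3539 H3K4me1 regions over a start in the order of loss. H3K27ac over the same start (chr9:82868265-82869253) held 11 and 8 reads in KO and 54 and 53 in WT. Its log2 fold change was -2.28 ± 0.31 (adjusted p = 2.18e-10), which put it in place 45 of 803 H3K27ac regions over a start, of which 49.2% were called lower (median -0.71). Both regions over the Phip start had a peak in the lists labelled WT and in none labelled KO. They entered the set of regions through those WT lists, which fixes their direction and the separation of the groups in part. These directions and places hold for the labels as given. With the libraries labelled H3K27ac KO and H3K4me1 WT exchanged, H3K27ac at the Phip start would read 10.8 and 11.2 CPM per kb in KO against 2.08 and 1.97 in WT, and H3K4me1 1.08 and 0.775 in KO against 0.464 and 0.359 in WT, which is higher in KO for both marks. Those levels come from tables scaled separately and from regions of unequal width, and were not tested.

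Most starts lost H3K4me1 in the libraries labelled KO, and other bromodomain genes were among them. Of 32 such genes, 19 had a tested H3K4me1 region over a start, and all 19 were called lower, where 86% of all starts were. Their median log2 fold change was -2.15, against -1.47 over all starts. The log2 fold change was -3.60 for Baz2b, a subunit of chromatin remodelling complexes, and -3.43 for Atad2b, against -2.42 and -2.41 for the acetyltransferase genes Crebbp and Ep300 and -0.59 for Trim33. Of 11 CUL4 ubiquitin ligase genes, 2 had such a region and both were lower, Det1 (-2.06) and Vprbp (DCAF1, a CUL4 receptor, -1.88). Among the neighbours, Hmgn1 fell by 0.86 and Psmg1, a proteasome assembly chaperone, was not called (-0.14). H3K27ac at starts was more mixed, with 4 of 6 bromodomain genes lower and Pbrm1, a subunit of a SWI/SNF remodelling complex, higher (0.80 ± 0.14). Summed per gene, H3K4me1 was higher for 2 and lower for 19 of 29 bromodomain genes, lower for 6 of 9 CUL4 genes, and higher for 4 and lower for 1 of 13 neighbours, where 18% of all gene sums were called higher and 23.3% lower. These genes were measured in the same libraries as labelled.

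SMC3 rose just upstream of the Phip start, on DNA that overlaps both mark regions that fell. The region (chr9:82869198-82869887) begins 101 bp before the start and held 60 and 60 reads in KO and 45 and 17 in WT, or 14.3 and 13.6 CPM in KO and 2.94 and 1.06 CPM in WT. The groups did not overlap, and the log2 fold change was 2.80 ± 0.48 (adjusted p = 0.00564). The region had a peak in KO 1 and in no WT list. It entered the set of regions through that list, which fixes the separation in part. Of the 507 SMC3 regions over a start, which do not include this one, 96.8% were called higher with a median of 3.20. How many of those entered through KO lists was not computed. The log2 fold change of the Phip region was 3.62 without WT 1 and 2.27 without WT 2. Leaving out either KO library raised the adjusted p to 0.0826 and 0.0759, and input-subtracted counts gave 0.0931.

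Inside Phip, at 14953 bp, WAPL fell, with 0.464 and 0.101 CPM in KO and 3.39 and 0.990 CPM in WT (log2 fold change -2.91 ± 0.81, adjusted p = 0.0362). This region had a peak in WT 1 and in no KO list, which fixes its direction in part. The reads behind it were few, 15 and 3 in KO and 70 and 20 in WT, and the call was lost without KO 1 (log2 fold change -4.37, adjusted p = 0.10), without KO 2 (-2.22, 0.167) and with input-subtracted counts (-5.01, 0.0770). Without WT 1 it passed at -1.76. A CTCF region overlapped this site, and its counts were below the filter. At 44531 bp upstream of Phip the marks moved apart at 1 site of under 120 bp: H3K27ac rose by 0.36 ± 0.13 (adjusted p = 0.0304) and H3K4me1 fell by 0.60 ± 0.14 (adjusted p = 0.000154). The H3K4me1 region had a peak in the list labelled WT 2 and in none labelled KO, which fixes its direction in part. That H3K27ac call was lost in 6 of 10 settings, among them each left-out library, and the H3K4me1 call was lost with DESeq2 (adjusted p = 0.133).

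Brwd3, the X-linked paralog, had 5 calls among 39 tested regions. They were 1 of 7 for WAPL (40.7% of all tested regions), 2 of 15 for H3K27ac (16.5%) and 2 of 6 for H3K4me1 (16.4%). Brwd3 had 0 of 4 for CTCF (0.0396%), 0 of 3 for NIPBL (1.63%), 0 of 2 for RAD21 (23.4%) and 0 of 2 for SMC3 (40.2%). Its only region over the start was of CTCF (chrX:106029653-106030032), with 10.3 and 11.3 CPM in KO and 13.6 and 5.37 CPM in WT (log2 fold change 0.22 ± 0.72, adjusted p = 0.807; without WT 2 it was -0.32 and without WT 1 1.06). Neither mark had a region over the Brwd3 start. The strongest site of the gene lay 173535 to 173596 bp away, beyond its far end, and held regions of all 7 targets. NIPBL there held 32.9 and 25.8 CPM in KO and 32.2 and 31.8 CPM in WT, SMC3 28.4 and 22.2 CPM in KO and 18.9 and 18.6 CPM in WT, and WAPL 29.0 and 28.7 CPM in KO and 23.6 and 20.9 CPM in WT.

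At that site WAPL rose by 0.37 ± 0.11 (adjusted p = 0.0382, lost in 6 of 10 settings), while SMC3 (0.43 ± 0.17), RAD21 (0.74 ± 0.25), NIPBL (-0.13 ± 0.14) and CTCF (-1.40 ± 0.73) did not pass. Several of these passed in other settings. CTCF passed without WT 1 (-1.82) and without WT 2 (-0.66). RAD21 passed with DESeq2 (1.22), without KO 1 (1.49) and without KO 2 (0.53). SMC3 passed with DESeq2 (0.57), with background scaling (0.80), without WT 1 (0.36) and without WT 2 (0.45). The marks fell there, H3K27ac by 0.49 ± 0.07 and H3K4me1 by 0.47 ± 0.09. The input was dense at the same place, up to 850 reads per kb in KO and 724 in WT, and its part in these values was not tested. In the body of Brwd3, at 86980 bp, H3K27ac fell by 0.64 ± 0.11 (adjusted p = 9.11e-07) and H3K4me1 at 86975 bp rose by 0.49 ± 0.12 (adjusted p = 0.000522, with DESeq2 0.153), again in opposite directions on the same DNA.

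The members differed in how much input lay under their protein regions. More than 100 input reads per kb in both genotypes were found under 0 of 5 Brwd1 regions, 9 of 19 Brwd3 regions and 6 of 9 Phip regions. Regions of several targets at the same site repeat the same input reads. These counts, and those over all 33 regions, are therefore not of independent regions. The share of all regions with such a density was not computed. The range in KO input was 12.7 to 67.0 reads per kb for Brwd1, 19.0 to 850 for Brwd3 and 25.4 to 453 for Phip, and in WT input 20.9 to 39.4, 6.67 to 724 and 25.4 to 407. The called SMC3 regions in Brwd1 and at the Phip start were not among the dense ones. Of all 33 regions, 32 had an interval of the KO share that held the share of the whole table, and the exception was the CTCF region at the Brwd3 start, with 32 KO and 54 WT input reads (37.2%, interval 27% to 48.3%, against 52.1%).

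**Figure D4:**
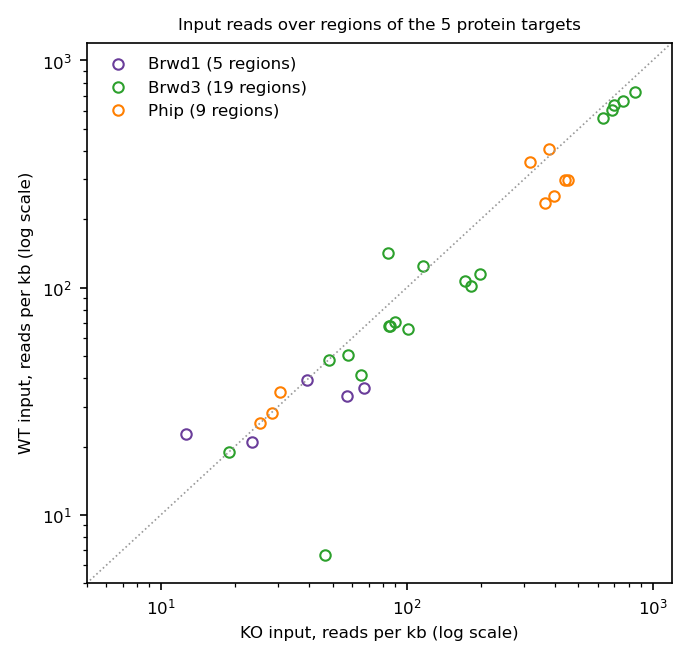
Input reads per kb in KO (x axis, log scale) and WT (y axis, log scale) under the 33 regions of the 5 protein targets, 1 circle per region and 1 colour per gene, with the line of equal values dotted. Brwd1 regions lie at low density, and the regions above 600 reads per kb in KO all lie at the same site beyond the far end of Brwd3.

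Summed over all regions of a gene, 5 values passed the test. NIPBL (1.42 ± 0.29, adjusted p = 0.00924) and SMC3 (2.96 ± 0.52, adjusted p = 0.00279) were higher at Brwd1, where each sum is the single region described above. H3K4me1 was lower at Phip (-0.69 ± 0.05, adjusted p = 1.67e-18) and by a narrow margin higher at Brwd1 (0.12 ± 0.05, adjusted p = 0.0471). H3K27ac was lower at Brwd3 (-0.22 ± 0.05, adjusted p = 0.000122). Among all genes, 11.1% of NIPBL sums, 64.3% of SMC3 sums, 32.7% of WAPL sums, 36.9% of H3K27ac sums, 41.2% of H3K4me1 sums and 0% of CTCF and RAD21 sums were called. The H3K4me1 sum at Phip passed in every setting run, and that at Brwd1 was lost with DESeq2, with input-subtracted counts and without KO 2 or WT 2.

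The ATPneg lists held peaks at Brwd1 that the KO and WT lists lacked. The inputs are of KO and WT cells without oligomycin, so the input of treated cells under these peaks cannot be checked. At 1 site inside the gene (mm9, chr16:96281078-96281262, 185 bp), between 22773 and 22798 bp from the start, all 8 ATPneg lists held a peak: both of NIPBL, both of RAD21, both of SMC3 and both of WAPL. None of the 8 KO lists and none of the 8 WT lists of these proteins had a peak there, and neither did any list of CTCF, H3K27ac or H3K4me1. Across the genome, 993 of the 189514 sites made by merging these 24 lists had a peak in all 8 ATPneg lists, and 2 of those sites had none in KO and WT. The other was on chromosome 6 (chr6:70672511-70672917), beside a region whose nearest gene was IgkJ5, a joining segment of the immunoglobulin kappa light chain. In the other direction, 1824 sites had a peak in all WT lists and in no ATPneg list. For KO, 4 sites had a peak in all lists and in no ATPneg list.

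The peak inside Brwd1 stood near the top of the SMC3 and WAPL lists and lower in those of NIPBL and RAD21. The authors' peak scores there were 116 and 111 for SMC3, where the medians of the lists were 12.2 and 12.1, and 147 of 40667 and 167 of 39437 peaks scored higher. For WAPL they were 23.8 and 33.0 (medians 10.7 and 11.4), for NIPBL 24.2 and 16.6 (11.3 and 11.5), and for RAD21 9.74 and 61.8 (8.96 and 14.9). RAD21 ATPneg 1 was thus the weakest, near the median of its list. The counts tables hold no region at this site, so no level can be given for KO or WT.

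The 3 CTCF regions of Brwd1 also carried SMC3 peaks after oligomycin. Both ATPneg SMC3 lists had a peak over all 3 of them, against 1 and 0 of 3 in the KO lists and 0 and 0 in the WT lists. Over all 81440 CTCF regions the shares with an SMC3 peak were 36.4% and 36.4% in ATPneg, 14.9% and 14.8% in KO and 15.7% and 26.5% in WT. RAD21 had a peak over 0 and 2 of the 3 in ATPneg and over none in KO and WT, while 16.3% and 31.7% of all CTCF regions carried one in ATPneg, 18.8% and 29.7% in KO and 13.0% and 15.6% in WT. The Phip start carried an SMC3 peak in both ATPneg lists, in KO 1 and in no WT list. With no counts and an unknown depth for ATPneg, these are presence and absence in lists, and no test was made.

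**Figure D5:**
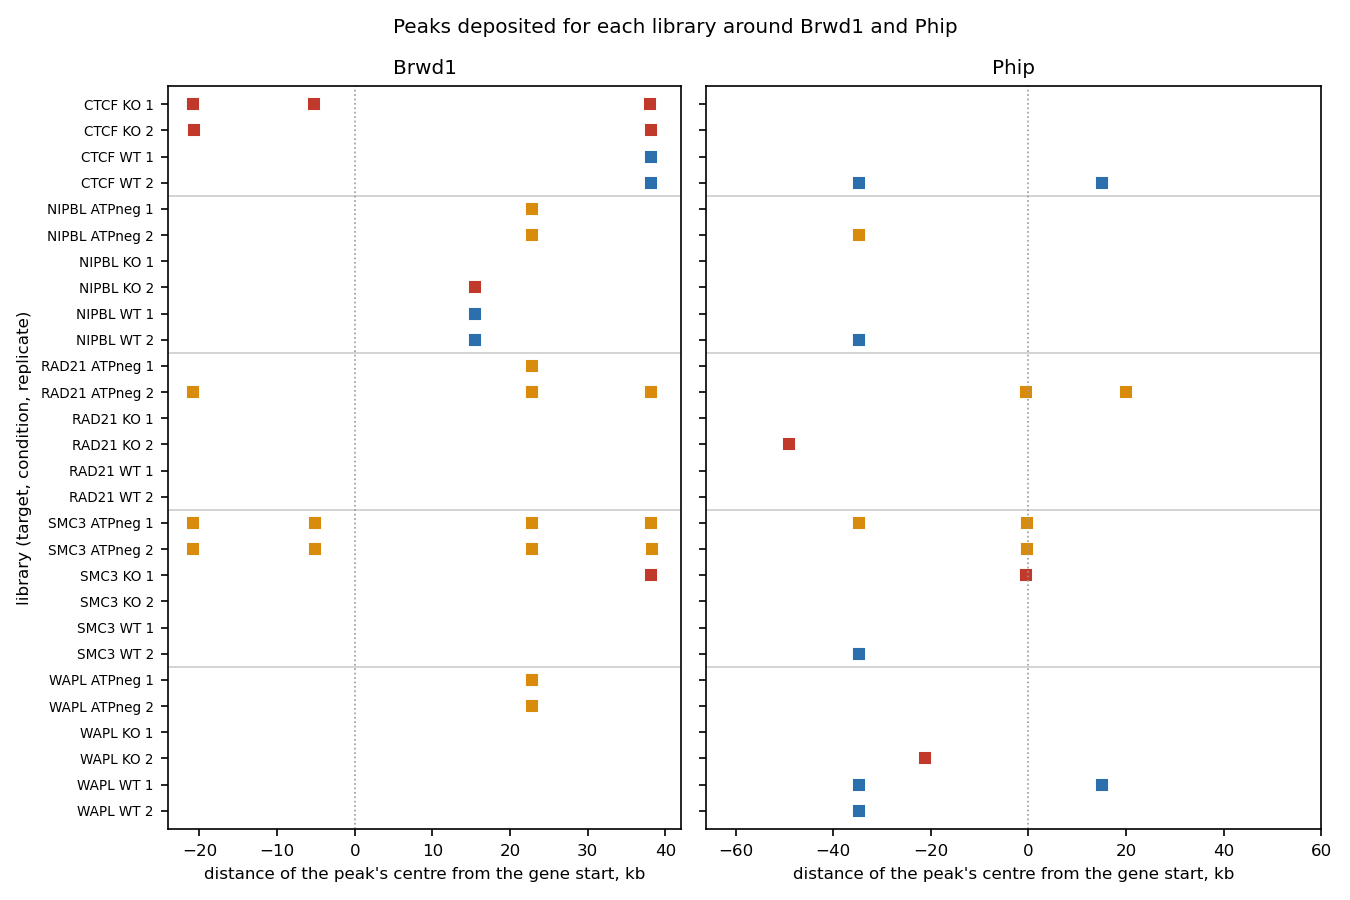
Peaks in each library's deposited list around Brwd1 and Phip (x axis, distance of the peak's centre from the gene start in kb, dotted line at the start), 1 row per library of CTCF, NIPBL, RAD21, SMC3 and WAPL, in orange for ATPneg, red for KO and blue for WT. The column of 8 orange squares inside Brwd1 is the site found in all ATPneg lists, and the SMC3 ATPneg rows repeat the 3 CTCF positions.

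Over the regions of all members, a peak in both ATPneg lists was found at 1 of 5 NIPBL regions, 0 of 3 RAD21 regions, 2 of 5 SMC3 regions and 0 of 11 WAPL regions. For SMC3 these are the Brwd1 region at 37998 bp and the region at the Phip start. For NIPBL it is the dense site beyond Brwd3. Both SMC3 regions had a peak in KO 1 and in no WT list. They entered the set of regions through that KO list, which fixes this pattern in part. The shares over all regions of each target were not computed for ATPneg peaks, so the counts here cannot be set against a background. In single lists, SMC3 peaks lay at 3 and 3 of 5 regions in ATPneg, 2 and 0 in KO and 2 and 3 in WT, and WAPL peaks at 0 and 1 of 11 regions in ATPneg, 4 and 4 in KO and 7 and 4 in WT. The WAPL lists of ATPneg were short, with 3280 and 4623 peaks, against 52236 and 68700 in KO and 76389 and 81317 in WT.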

How the data were processed

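ChIP-seq regions of 7 targets were analysed in KO and WT small pre-B cells, with 2 libraries per group, and ATPneg libraries through their peak lists. Per the submitters' processing notes, reads were placed on mm9, and featureCounts, edgeR, MACS2, BWA, bedtools and Picard are named; their roles and versions are not given in the sources used here. The authors deposited raw counts of reads per merged region, with 1 input column per genotype in the protein tables. From the values, the deposited signal tables hold input-subtracted counts times a constant per column, and were used for the nearest gene. The score of the authors' input-subtracted tables is a count less input, set to 0 where negative, and served as an alternative. The score in the deposited peak lists is the authors' own value per peak, from lists called per library. External input columns in the histone tables, 2 in all, were not used.

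The test was the quasi-likelihood F test of edgeR (version 4.0.16, R version 4.3.3, filterByExpr, TMM factors, Benjamini-Hochberg threshold 0.05) over all regions of a target and over sums per gene. The SE is the log2 fold change divided by the square root of F. DESeq2 1.42.0, library totals, scaling to low-signal regions (the lowest 25%), no filter, input-subtracted counts, a replicate block and left-out libraries were alternatives, and the script was tested on simulated counts. Peaks were matched by an overlap of 1 bp. The labels do not say whether replicate numbers pair libraries, and the main test used no pairing. Named regions were, per gene and target, the one nearest the start, the one with the highest mean CPM and up to 3 called regions by adjusted p. The members, lists and rules were chosen with earlier results of these data known. Promoters came from RefSeq (GRCm38.p6), matched by symbol for all 3 genes.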

Additional observations from a re-analysis of the deposited data

How the results depend on the processing

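Of the 22 called regions, 10 kept their call in every setting that gave an adjusted p and 12 lost it in at least 1 of 10 settings; of the named regions and sums, 467 values kept direction and side of the threshold, 36 lost the call, 30 gained one and 33 turned direction. The cause was not tested. Called regions, by target: NIPBL had 2 with background scaling, 0 with DESeq2, 0 with input-subtracted counts and 2 with the replicate block, against 1. RAD21 had 1 with DESeq2, against 0, SMC3 1 with input-subtracted counts, against 2, and WAPL 5 with library totals, 8 with background scaling, 1 with DESeq2 and 1 with input-subtracted counts, against 2. With DESeq2, H3K27ac had 3, against 8, and H3K4me1 4, against 9. Called sums: NIPBL had 0 with input-subtracted counts, against 1, SMC3 2 with library totals and 2 with background scaling, against 1, WAPL 1 with library totals, against 0, H3K27ac 2 with background scaling, against 1, and H3K4me1 1 with DESeq2 and 1 with input-subtracted counts, against 2. SMC3 regions with a peak in both ATPneg lists numbered 1 with a 50% overlap and 1 at 2 times the lowest score, against 2.

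Leaving out 1 library gave 0 to 6 called CTCF regions, 0 to 0 for NIPBL, 0 to 3 for RAD21, 1 to 4 for SMC3 and 0 to 5 for WAPL, and sums of 0 to 3 for CTCF, 0 to 0 for NIPBL, 0 to 1 for RAD21, 1 to 2 for SMC3, 0 to 1 for WAPL and 1 to 2 for H3K4me1. ATPneg overlaps in single lists were 1 to 2 for NIPBL, 0 to 1 for RAD21 and 0 to 1 for WAPL. A group left with 1 library is assumed to vary like the other.

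Values that turned direction were all uncalled as reported. With input-subtracted counts these were CTCF at Brwd1 37897 bp (-0.19) and 5090 bp upstream (-0.018), NIPBL at Brwd3 42249 bp (-0.51) and 173581 bp (0.033) and 34661 bp upstream of Phip (-0.30), and the sums of NIPBL at Brwd3 (0.21) and Phip (-0.15) and of WAPL at Phip (-0.52). With background scaling they were NIPBL at Brwd3 173581 bp (0.029), SMC3 at Brwd3 89204 bp (0.11), H3K27ac at Brwd3 1545 bp (-0.044), and the sums of SMC3 (-0.060), WAPL (-0.034) and H3K27ac (-0.11) at Phip and of H3K4me1 at Brwd3 (0.10). With library totals they were NIPBL at Brwd3 42249 bp (-0.17) and the sums of SMC3 at Brwd3 (0.36) and H3K27ac at Brwd1 (0.0020). Leaving out 1 library gave ranges that cross 0 for CTCF at Brwd1 37897 bp (-0.0085 to 1.86) and at the Brwd3 start (-0.32 to 1.06), where WT 2 or WT 1 decides the value, for NIPBL at Brwd3 173581 bp (-0.31 to 0.039) and 42249 bp (-0.35 to 0.39), for RAD21 at Brwd3 89200 bp (-1.0 to 2.15), where KO 1 or KO 2 decides it, for SMC3 at Brwd3 89204 bp (-0.52 to 0.011), for H3K27ac at Brwd3 1545 bp (-0.043 to 0.37) and for H3K4me1 at Brwd3 3780 bp (-0.49 to 0.18). The same held for the sums of NIPBL (-0.23 to 0.14) and RAD21 (-0.15 to 1.06) at Brwd3, of WAPL (-0.27 to 0.34) and H3K27ac (-0.0043 to 0.038) at Phip, and of H3K27ac at Brwd1 (-0.096 to 0.031).

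The median log2 fold change of all regions moved with the scaling: for RAD21 it was -0.39 as reported and 0.47 with background scaling, for SMC3 -0.22 and 0.15, for WAPL 0.07 and 0.52, and for CTCF -0.37 and -0.07. Same-numbered libraries did not deviate together (correlation -0.23 for CTCF, -0.07 to 0.02 for the others). That does not show how the libraries were prepared, and the labels do not say whether replicate numbers pair them. Crossing the CTCF numbers, chosen after seeing the data, gave 25 higher and 89 lower regions, against 6 and 24. Few reads limit the WAPL region in Phip and the marks upstream of Brwd1.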
